A study of Mus musculus with 6 samples.

Results

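Col6a1, Col6a2, Col6a3, Col15a1 and Col18a1, the genes of collagen VI and of the multiplexin collagens XV and XVIII, were followed in RNA-seq of whole intervertebral discs (IVDs) of 20-day-old (P20) mice of the C57B6/J strain. The 5 genes were chosen by symbol, as the beaded filament and multiplexin collagens, from the 43472 gene symbols of the count files, and all 5 were tested, among 44 collagen symbols. There were 3 mutant libraries, from mice labelled Col2Cre; Adgrg6f/f, and 3 control libraries. The control genotype is labelled wild type, the sample titles name a Col2Cre control, and the study describes its controls as littermates without Cre. Col2Cre is designed to delete the floxed part of Adgrg6 in cells that have expressed the Cre driver, which the study describes as recombining through the whole IVD before birth. Each library is a pool of thoracic and lumbar IVDs of 2 to 3 mice, so single mice were not resolved, and p-values measure the spread between these pools. In whole-tissue RNA a change in the number of cells of one kind and a change in RNA per cell cannot be told apart.

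Collagen VI is assembled from the chains encoded by Col6a1, Col6a2 and Col6a3. The trimers pair inside the cell and join end to end outside it as beaded microfilaments, which are concentrated in the pericellular matrix, the thin shell around each chondrocyte of cartilage and disc. Collagens XV and XVIII are proteoglycans of basement membrane zones, the sheets under endothelium and around muscle, nerve and fat cells, and each carries at its carboxyl end a domain that proteases can release, restin from XV and endostatin from XVIII. Adgrg6, also called Gpr126, encodes an adhesion G protein-coupled receptor.

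The counts on genes ran from 9061491 to 12017008 per library, and the 5 genes took 0.828 to 1.12% of them. The targeted gene, listed as Gpr126, stood at 124, 108 and 94.3 CPM (counts scaled to a common library size with TMM factors) in the controls, in the order of replicates 1, 2 and 3, and at 138, 124 and 106 CPM in the mutants. The groups overlapped (log2 fold change 0.17, SE 0.18, adjusted p = 0.849, edgeR with Benjamini-Hochberg adjustment), and counts summed over the whole gene do not test the deleted part. The tissue label was checked against chondrocyte markers, which summed to 86364 to 150350 CPM, and nucleus pulposus markers, which summed to 2397 to 5823 CPM, with Noto too low to be tested. Most of the chondrocyte sum was Col2a1 (62708 to 124063 CPM), and the largest part of the nucleus pulposus sum was Car3 (1267 to 3520 CPM). Control replicate 1 stood apart in skeletal muscle transcripts, at a summed 4657 CPM against 206 to 301 in the other libraries. Control replicate 3 stood apart in collagens, which took 11.7% of its counts on genes against 16.4 to 18.4% in the other libraries.

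Col6a1 and Col6a2 lie on the minus strand of chromosome 10 (GRCm38, GENCODE M21), at chr10:76708792-76726168 and chr10:76595762-76623630, 85161 bases apart. Col18a1 lies on the same strand at chr10:77052178-77166548, 326009 bases from Col6a1. Col6a3 is at chr1:90765923-90843971 on the minus strand and Col15a1 at chr4:47208161-47313167 on the plus strand. The 250 bases before a RefSeq start (GRCm38.p6) are shown for the neighbours Col6a1 and Col6a2, whose levels followed each other across libraries, and for Col15a1, which differed most in fold between genotypes. They are written 5′ to 3′ on the gene's strand, and capitals mark matches to the motifs searched. The windows are chr10:76726045-76726294 (minus strand) for Col6a1, chr10:76623631-76623880 (minus strand) for the RefSeq start of Col6a2 that equals its GENCODE start, and chr4:47207762-47208011 (plus strand) for Col15a1.
Col6a1: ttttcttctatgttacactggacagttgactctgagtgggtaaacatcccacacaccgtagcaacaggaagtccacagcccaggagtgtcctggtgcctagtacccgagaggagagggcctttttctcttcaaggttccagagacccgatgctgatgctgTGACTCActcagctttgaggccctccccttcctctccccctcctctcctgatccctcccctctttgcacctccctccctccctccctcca
Col6a2: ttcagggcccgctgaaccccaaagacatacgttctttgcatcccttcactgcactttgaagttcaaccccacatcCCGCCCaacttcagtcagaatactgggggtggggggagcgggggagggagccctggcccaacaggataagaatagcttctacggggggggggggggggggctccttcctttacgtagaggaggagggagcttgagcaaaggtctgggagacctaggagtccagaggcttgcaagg
Col15a1: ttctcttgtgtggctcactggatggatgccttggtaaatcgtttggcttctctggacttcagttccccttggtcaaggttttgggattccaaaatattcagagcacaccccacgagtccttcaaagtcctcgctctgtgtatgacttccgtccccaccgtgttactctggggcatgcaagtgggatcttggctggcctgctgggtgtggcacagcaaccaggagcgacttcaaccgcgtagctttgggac

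Both strands of each window were searched for 5 motifs, and the same was done for all 32851 promoter windows of this length in the table. An AP-1 motif, TGANTCA, stood in 6.75% of all windows. The GC box, GGGCGG, stood in 32.7% of them. A STAT motif, TTCNNNGAA, was found in 7.02%, the TATA box, TATAAA, in 12.4%, and a SOX motif, ACAATGG, in 3.02%. The Col6a1 window held the AP-1 letters, as TGACTCA from 90 to 84 bases before the RefSeq start at 76726044. GENCODE starts this gene further upstream, at 76726168, so the match lies inside the gene on that annotation. The Col6a2 window held the GC box, on the other strand, from 175 to 170 bases before the start, so the neighbours shared no match of the 5. The Col15a1 and Col6a3 windows held no match. Both Col6a2 and Col18a1 have 2 RefSeq starts, and the more downstream Col6a2 window and the more upstream Col18a1 window each held 3 GC boxes.

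The collagen VI chains were among the most abundant transcripts of the IVD. By mean CPM, which does not correct for length, Col6a2 ranked 21, Col6a1 25, Col6a3 50, Col15a1 124 and Col18a1 1965 of 16152 genes tested. Per kilobase of merged exons, the mean level over the 6 libraries was 760.0 CPM per kb for Col6a1, 443.5 for Col6a2, 141 for Col6a3, 102 for Col15a1 and 10.7 for Col18a1. This order was the same in the control means and the mutant means. Among the 44 collagens, the level per kb placed Col6a1 at ranks 5 to 7 in single libraries, Col6a2 at 7 to 10, Col6a3 at 11 to 14, Col15a1 at 13 to 17 and Col18a1 at 24 to 26.

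The order of the upper pair depends on the length used. Over merged exons, which count every annotated exon, the per-kb level of Col6a2 was 0.542 to 0.606 times that of Col6a1, and over the longest coding transcript it was 0.908 to 1.02 times that of Col6a1, so the pair cannot be ordered. Col6a3, the largest chain, stood lower on both scales, at 0.145 to 0.230 times Col6a1 over merged exons. The per-kb levels of Col6a3 and Col15a1 lay close together in the mutant group, at 155 ± 19.2 and 126 ± 17.9 CPM per kb (SD, n = 3 each), and their library values were 143 to 177 and 109 to 145. The per-kb level of Col15a1 was 7.24 to 19.2 times that of Col18a1. Together the 5 genes took 4.77 to 7.38% of the counts on collagens, nearly all of them from the VI chains, which alone took 4.39 to 6.95%.

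The comparison of mutant with control IVDs asks whether the Col2Cre; Adgrg6f/f genotype goes with a different level of each of these matrix genes. Col15a1 was higher in mutant IVDs at an unadjusted p, by 1.60-fold, and it was the only one of the 5 without overlap between the groups. The VI chains Col6a1 and Col6a2 had fold changes near 1 with wide intervals, Col6a3 and Col18a1 had means that were higher in mutant IVDs within the spread of the libraries, and no member passed after adjustment over all genes. The plot of CPM by library shows these values.

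**Figure D1:**
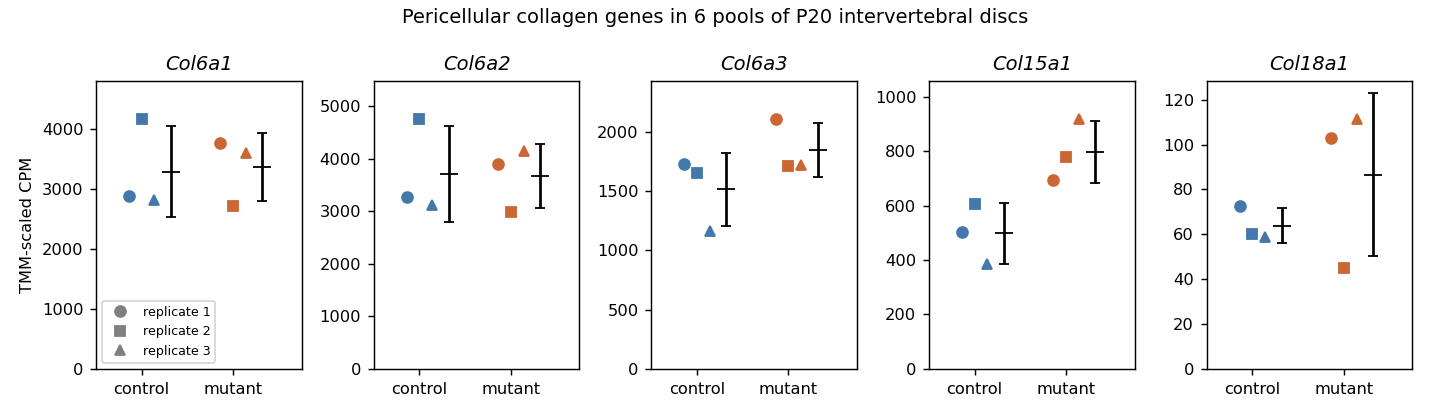
TMM-scaled CPM of each gene (vertical axes from 0, a separate range for each gene) in the 3 control and 3 mutant libraries, with the shape of a point giving the replicate number and the bar giving the mean and SD. All 3 mutant values of Col15a1 (695, 779 and 920 CPM) lie above the highest control value (607 CPM), and mutant replicate 2 has the lowest Col18a1 value of the 6 libraries (45.0 CPM).

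Col6a1 encodes the α1 chain of collagen VI. In control replicates 1, 2 and 3 it had 2877, 4175 and 2823 CPM, and the mutant libraries, in the same order, had 3775, 2725 and 3598 CPM. Control replicate 2 was the highest library and mutant replicate 2 the lowest, and the groups overlapped throughout. The means were 3292 ± 765 and 3366 ± 562 CPM (SD, n = 3 each), a log2 fold change of 0.03 (SE 0.28, adjusted p = 0.986, edgeR quasi-likelihood test with Benjamini-Hochberg adjustment). The 95% interval of the fold change, 0.667 to 1.57, leaves room for a difference of either direction.

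Col6a2 encodes the α2 chain. Its levels were 3265, 4763 and 3113 CPM in the controls and 3891, 2979 and 4145 CPM in the mutants, in the order of the replicate numbers. As for Col6a1, control replicate 2 was the highest library, mutant replicate 2 the lowest, and the groups overlapped. The means were 3713 ± 912 and 3672 ± 613 CPM (SD, n = 3 each), with a log2 fold change of −0.02 (SE 0.28, 95% interval −0.65 to 0.61, adjusted p = 0.992 by edgeR with Benjamini-Hochberg adjustment).

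Col6a3 encodes the long α3 chain, which binds other matrix proteins and releases a short fragment called endotrophin. It had 1730, 1653 and 1165 CPM in the control libraries and 2113, 1714 and 1718 CPM in the mutant libraries. Control replicate 3 was the lowest, 1 mutant library lay above all controls, and all 3 mutant libraries lay above the control mean, while the groups overlapped. The means were 1516 ± 307 and 1848 ± 229 CPM (SD, n = 3 each), a log2 fold change of 0.29 (SE 0.25, 95% interval −0.26 to 0.83, adjusted p = 0.815 by edgeR with Benjamini-Hochberg adjustment).

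Col15a1 encodes the chain of collagen XV. Its levels were 504, 607 and 384 CPM for controls 1, 2 and 3, and 695, 779 and 920 CPM for mutants 1, 2 and 3. Every mutant library lay above every control library. The means were 498 ± 111 and 798 ± 114 CPM (SD, n = 3 each), a log2 fold change of 0.68 (SE 0.23, 95% interval 0.16 to 1.20). The edgeR quasi-likelihood test, a model fitted across all genes, gave an unadjusted p of 0.0151 and an adjusted p = 0.676 after Benjamini-Hochberg adjustment. The unadjusted p was 0.0587 in the edgeR fit without control replicate 3 and 0.0622 without mutant replicate 3, the lowest and the highest library of the 6, with log2 fold changes of 0.53 and 0.57.

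Col18a1 encodes the chain of collagen XVIII and was the rarest of the 5, with 541 to 1050 counts per library. It had 72.8, 60.1 and 58.7 CPM in the controls and 103, 45.0 and 112 CPM in the mutants, in the order of the replicate numbers. Mutant replicates 1 and 3 lay above all controls, whereas mutant replicate 2 lay below them all. The means were 63.8 ± 7.76 and 86.5 ± 36.3 CPM (SD, n = 3 each), a log2 fold change of 0.44 (SE 0.30, 95% interval −0.22 to 1.10, adjusted p = 0.782 by edgeR with Benjamini-Hochberg adjustment). Without mutant replicate 3 the log2 fold change was 0.21 (unadjusted p = 0.524 in edgeR, the model across all genes). Without mutant replicate 2 it was 0.76, at an unadjusted p of 0.00257 and an adjusted p of 0.491 in the edgeR fit across all genes with Benjamini-Hochberg adjustment.

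Counting error was smaller than the spread between libraries for each of the 5. A count of Col18a1 carried a counting error of 3.09 to 4.30%, against a coefficient of variation between libraries of 12.2% in controls and 41.9% in mutants. For Col6a1 the counting error was 0.516 to 0.610%, against 23.3% and 16.7%. Between the highest and the lowest library of a genotype, the VI chains and Col15a1 differed by 1.23 to 1.58 times and Col18a1 by up to 2.48 times.

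In numbers, 1 of the 5 genes passed an unadjusted p under 0.05, against 7.21% of all 16152 genes tested, of which 2.89% were higher and 4.32% lower in mutant IVDs. None passed at an adjusted p under 0.05 in edgeR, nor in DESeq2 or limma-voom, and 1 of all genes, 0.00619%, passed it in edgeR. The groups did not overlap for 1 of the 5, against 11.4% of all genes. The log2 fold change was above 0 for 4 of the 5, against 48.4% of all genes, and the median of the 5 was 0.29, beside −0.01 for all genes. Of the 4, Col6a1 fell below 0 in 6 of the 12 alternatives to the main fit. The plot of fold changes shows how each estimate moved when a library was left out.

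**Figure D2:**
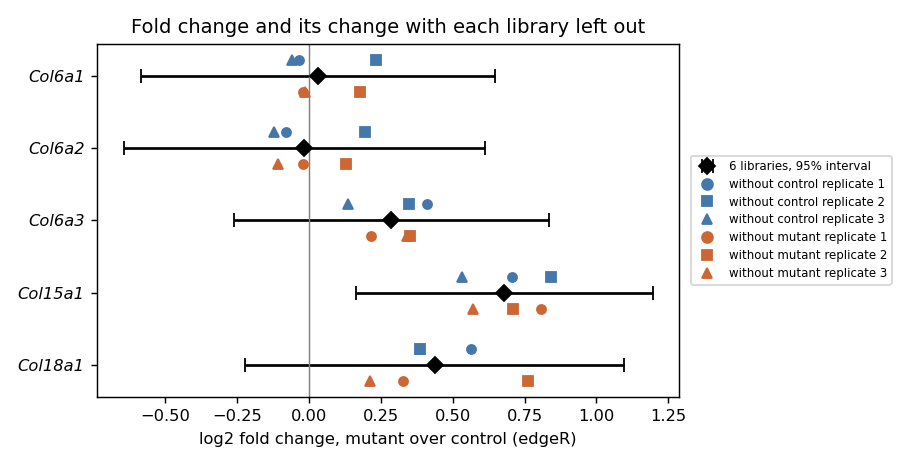
Log2 fold change of mutant over control for each gene (horizontal axis), as a black diamond with its 95% interval from all 6 libraries, and the estimates with each library left out as coloured points. The interval of Col15a1 (0.16 to 1.20) lies above 0, those of the other genes span 0, and the estimates of Col6a1 and Col6a2 fall on both sides of 0.

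Genes that overlap a member on the annotation could share its reads, and the strand setting of the counting is not given in the sources used here. Slc19a1, a folate carrier gene on the opposite strand, overlaps 8825 bases of Col18a1 with no exon lying on an exon, and had 4262 counts over the 6 libraries beside the 4479 of Col18a1. Its levels were 64.1, 70.6 and 58.4 CPM in the controls and 88.5, 47.0 and 98.4 CPM in the mutants, so that mutant replicate 2 was the lowest and mutant replicates 1 and 3 the highest, as for Col18a1. Across the 6 libraries the log2 CPM of the pair had a Pearson r of 0.95, and the part of shared reads in this was not tested. Gm12426, a transcript antisense to the 5′ end of Col15a1, overlaps 299 bases of that gene, 14 of them exon on exon. It had 4148 counts beside the 39404 of Col15a1. By replicate number, it stood at 42.7, 74.1 and 41.7 CPM in controls and 105, 48.6 and 109 CPM in mutants, with overlap. The log2 fold change of Gm12426 was 0.73 (SE 0.32, unadjusted p = 0.0472, adjusted p = 0.691, edgeR with Benjamini-Hochberg adjustment). Across the 6 libraries its log2 CPM had a Pearson r of 0.71 with that of Col15a1.

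The make-up of the collagen VI mRNA was compared as log2 ratios of counts within each library, which need no scaling between libraries. The log2 ratio of Col6a2 to Col6a1 was 0.18, 0.19 and 0.14 in the controls and 0.04, 0.13 and 0.20 in the mutants. The ratio was nearly constant, with means of 0.17 ± 0.03 and 0.13 ± 0.08 (SD, n = 3 each) and a difference of −0.05 (two-sided exact permutation test, p = 0.6). With each library left out it ran from −0.085 (without mutant replicate 3) to −0.0047 (without mutant replicate 1). The log2 ratio of Col6a3 to Col6a1 varied more, from −1.34 to −0.73 in the controls and from −1.07 to −0.67 in the mutants. Its means were −1.12 ± 0.33 and −0.86 ± 0.20 (SD, n = 3 each), a difference of 0.26 with overlap (exact p = 0.3). That difference was 0.45 when control replicate 1 was left out, 0.15 when this was control replicate 2 and 0.16 when it was mutant replicate 2.

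The log2 ratio of Col15a1 to Col18a1 was 2.79, 3.34 and 2.71 in the controls and 2.75, 4.12 and 3.04 in the mutants, a difference of 0.36 (exact p = 0.6). Mutant replicate 2, low in Col18a1, stood highest, and without it the difference was −0.048. It was 0.63 without mutant replicate 1 and 0.55 without control replicate 2. Summed collagen VI against Col2a1, the fibril collagen of cartilage, differed by −0.24 between the groups (exact p = 0.4), and the summed members against all other collagens by −0.21 (exact p = 0.5), both with overlap. Without control replicate 1 these differences were −0.41 and −0.40, and without control replicate 3 they were −0.085 and −0.066. The second was −0.13 without mutant replicate 2. With 3 against 3 libraries the smallest p is 0.1, and the adjusted p over these 5 ratios was 0.6 for each (Benjamini-Hochberg, exact permutation tests).

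A further ratio, of Col15a1 to summed collagen VI, was chosen after the values were seen. Its log2 value was −3.97, −4.12 and −4.21 in the controls and −3.82, −3.25 and −3.36 in the mutants, in the order of the replicate numbers. The groups did not overlap and their means differed by 0.62, which is given as a description with no test, since the ratio was picked for this pattern. The plot of ratios shows the libraries behind each comparison.

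**Figure D3:**
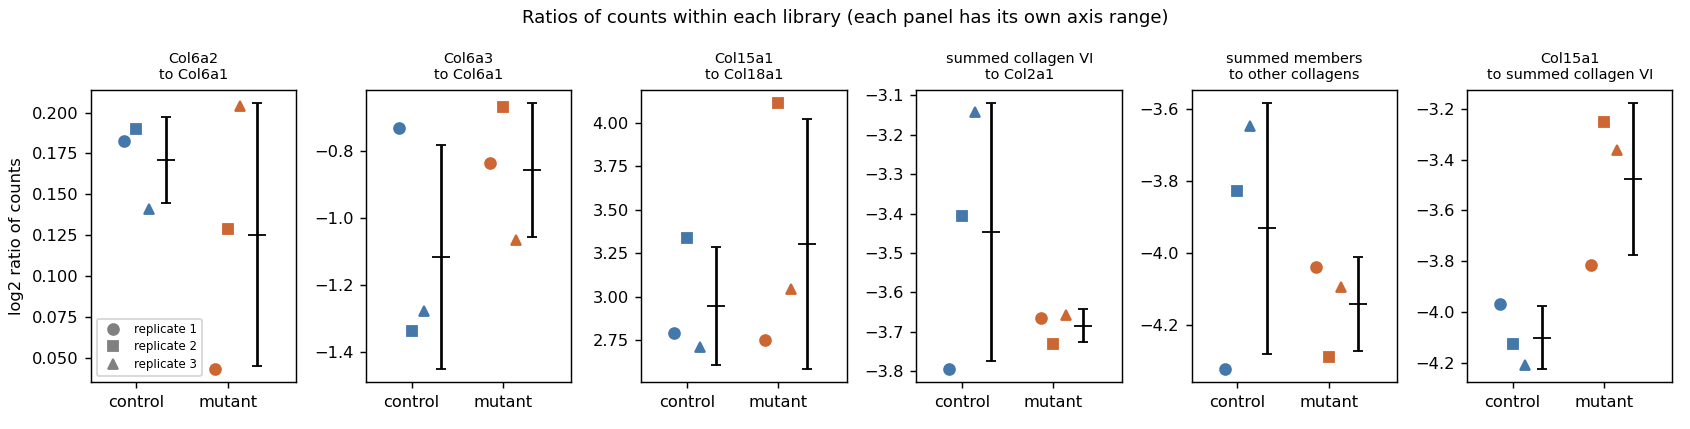
Log2 ratios of counts within each library (vertical axis, a separate range for each panel), with points as libraries, shapes as replicate numbers and bars as mean and SD. Col6a2 to Col6a1 spans 0.04 to 0.20, the groups overlap in the 5 planned ratios, and Col15a1 to summed collagen VI (−4.21 to −3.97 in controls, −3.82 to −3.25 in mutants) was picked after the values were seen.

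How far the members followed each other was described by the Pearson r of log2 CPM across the 6 libraries, which share preparation and scaling. Col6a1 and Col6a2 had an r of 0.98, and 0.98 again after the genotype means were taken out. Col6a3 followed them less closely, at 0.45 with Col6a1 and 0.36 with Col6a2, and its r with Col2a1 was 0.93 (0.92 within genotypes). Col15a1 had an r of 0.93 with Col3a1, a fibril collagen of fibrous tissue (0.72 within genotypes), 0.87 with Col1a1 (0.71 within genotypes) and 0.74 with Col2a1 (0.73 within genotypes). The r of Col15a1 with Col18a1, the other multiplexin, was 0.37.

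Among 9965 genes with a mean of at least 10 CPM, the profiles most like those of the members were picked by the same r. For Col15a1 these were Col5a1, a minor fibril collagen (r = 0.99), Gpx8 and Glis2 (both 0.99). Nkx3-2, a chondrogenic transcription factor gene, came first for Col6a1 (0.99), followed by Hagh and 1110065P20Rik (both 0.98). The profiles nearest to Col6a2 were Mrpl43, Grpel1 and Ccdc71 (0.99 each), and those nearest to Col6a3 were Pkd1 (0.996), Prkaca (0.995) and Atp8b2 (0.995). For Col18a1 they were Bysl, Pskh1 and Tcn2 (0.98 each). Between 111 and 299 of the 9965 genes passed an r of 0.9 with each member, so a high r was not particular to the genes named.

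Among the other 39 collagens, 8 were higher and 5 lower in mutant IVDs at an unadjusted p under 0.05, 20 had a log2 fold change above 0, and the median was 0.04. None passed after adjustment in edgeR. Of the 6 fibrous collagens I, III and V, 5 were higher in edgeR, with Col3a1 at a log2 fold change of 1.08 (SE 0.28) and Col5a1 at 0.80 (SE 0.24), and 3 of the 6 passed an adjusted p under 0.05 in DESeq2. Of the 7 cartilage collagens, Col9a2 (−0.64, SE 0.28) and Col9a3 (−0.73, SE 0.27) were lower. The count of higher fibrous collagens was 3 without control replicate 2, control replicate 3 or mutant replicate 3. The count of lower cartilage collagens was 0 when control replicate 1 or either of mutant replicates 2 and 3 was left out, and 1 without control replicate 2. The log2 fold change of Col15a1, 0.68, lay within the range of the fibrous collagens (0.46 to 1.08). Those of Col6a1 and Col6a2, 0.03 and −0.02, lay above 6 of the 7 cartilage collagens (−0.91 to −0.24) and below Col2a1 (0.27, SE 0.46). Those of Col6a3, 0.29, and Col18a1, 0.44, lay above all 7 and below the fibrous collagens, as the plot of collagens shows.

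**Figure D4:**
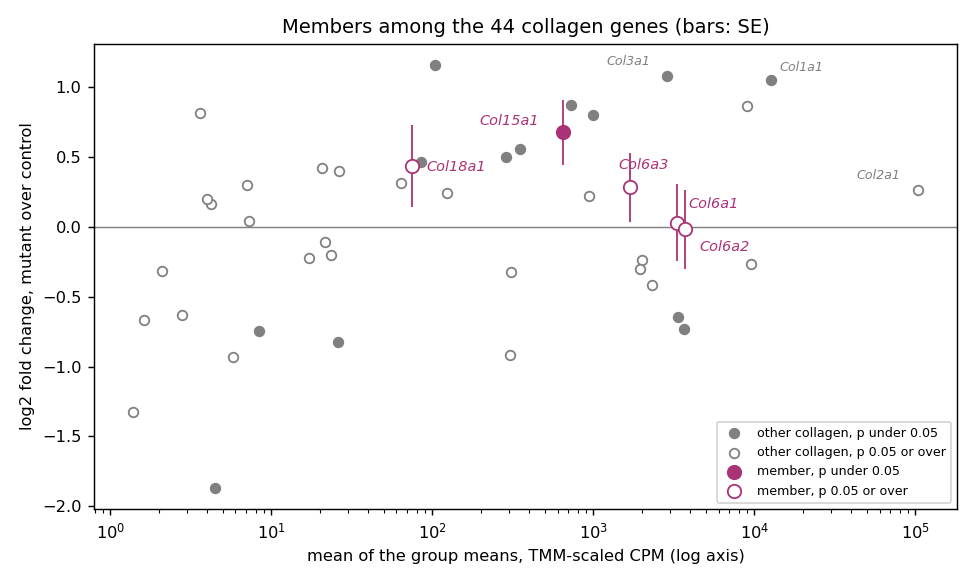
Log2 fold change of mutant over control (vertical axis) against the mean of the group means in TMM-scaled CPM (horizontal log axis) for the 44 collagen genes. Members are coloured, with bars for the SE, and filled points have an unadjusted p under 0.05 in edgeR. Col15a1 (0.68) is the filled member, and the remaining 4 are open.

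Partners of these collagens were taken from lists of known binding proteins, receptors and enzymes, and are counted by an unadjusted p under 0.05 in edgeR, beside the 2.89% higher and 4.32% lower of all genes. None of their genes passed after adjustment in edgeR, DESeq2 or limma-voom, and 1 protease did in edgeR without a filter on low counts. The chains related to α3, Col6a4, Col6a5 and Col6a6, were near the lower limit of measurement, with a summed 7.38 to 16.5 CPM in a library, and 0 of 3 passed. Of 7 receptors of collagen VI, 0 passed (median log2 fold change −0.02, or −0.04 to 0.18 with each library left out, lowest for mutant replicate 3 and highest for control replicate 3). The most abundant were Cspg4, the NG2 proteoglycan, at 517 ± 80.5 CPM in controls and 438 ± 57.9 in mutants (SD, n = 3 each), and Itgb1, the β1 integrin chain, at 167 ± 6.01 and 192 ± 3.16 CPM (SD, n = 3 each, log2 fold change 0.20, SE 0.16). The mutant libraries of Itgb1 all lay above the controls, though it did not pass.

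Of 13 matrix proteins that bind collagen VI, 1 was higher and 2 were lower, with a median log2 fold change of 0.25. All 3 are matrilins, adaptors that link collagen VI to other matrix, and Matn1, the remaining matrilin of the list, had a log2 fold change of −0.08 (SE 0.26). Matn2 was higher by 0.50 (SE 0.21), at 176 ± 31.8 CPM in controls and 250 ± 39.7 in mutants (SD, n = 3 each). Matn3 was lower by a log2 fold change of −0.78 (SE 0.28), at 525 ± 145 and 305 ± 94.4 CPM (SD, n = 3 each), without overlap. Matn4 was lower with a log2 fold change of −0.59 (SE 0.25). Without control replicate 1, which was the highest in Matn3 and Matn4, 1 was higher and 0 were lower. Without mutant replicate 2 or mutant replicate 3, 0 passed in either direction. The count was 2 higher and 1 lower without control replicate 2, 0 higher and 2 lower without control replicate 3, and 2 of each without mutant replicate 1. The median ran from 0.15 with mutant replicate 2 left out to 0.41 with control replicate 2 left out, and was 0.17 with control replicate 3 left out. Comp, Fn1, Bgn and Hspg2, the most abundant of the list, did not pass, with log2 fold changes of −0.40, 0.29, 0.54 and −0.16. The mutant libraries of Bgn all lay above the controls.

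Of 14 basement membrane partners of collagens XV and XVIII, 4 were higher and 2 lower, with a median log2 fold change of 0.31. The higher ones were the laminin chains Lamb1 (0.67, SE 0.23) and Lamc1 (0.54, SE 0.21) and the collagen IV chains Col4a1 (0.50, SE 0.22) and Col4a2 (0.56, SE 0.22). Laminins and collagen IV form networks in basement membranes. Hspg2 (−0.16, SE 0.27), Nid2 (−0.36, SE 0.28) and Lamb2 (0.02, SE 0.21), also abundant in the list, did not pass. Lama2, the laminin chain of muscle and nerve (−0.65, SE 0.21), and Fbln1, fibulin-1 (−0.46, SE 0.20), were lower. The count was 5 higher and 2 lower without control replicate 1, 5 higher and 1 lower without mutant replicate 2, 0 higher and 1 lower without control replicate 3, and 1 higher and 1 lower without control replicate 2. Without mutant replicate 1 it was 1 higher and 2 lower, and without mutant replicate 3 it was 2 higher and 1 lower. The median was 0.46 with mutant replicate 2 left out, 0.14 with mutant replicate 1 left out and 0.19 with control replicate 2 left out.

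Of 12 proteases that cut these collagens or their precursors, 9 were tested. Mmp3, stromelysin-1, passed, at 6.65 ± 2.51 CPM in controls and 15.5 ± 3.76 in mutants (SD, n = 3 each), a log2 fold change of 1.22 (SE 0.32). Ctsb, Mmp14, Bmp1 and Mmp2, the most abundant proteases, did not pass, with log2 fold changes of 0.22, 0.03, 0.39 and 0.44, although the mutant libraries of Mmp2 all lay above the controls. The proteases tested summed to 929 to 1212 CPM in controls and 1249 to 1342 CPM in mutants, without overlap. Of 6 receptors named for endostatin, 0 passed (median 0.19, with 0.11 without control replicate 2 and 0.30 without mutant replicate 1). Of 14 genes of collagen chain folding, modification and export, 0 passed (median 0.06, or −0.03 to 0.15 with each library left out, lowest for control replicate 3 and highest for control replicate 1). Serpinh1, the collagen chaperone HSP47, and P4hb, a subunit of prolyl 4-hydroxylase, had log2 fold changes of −0.04 and 0.08. Without control replicate 1, 1 gene each was higher among the collagen VI receptors, the endostatin receptors and the folding genes. The same count of 1 was found for the endostatin receptors without mutant replicate 3 and for the folding genes without mutant replicate 2. Of the proteases, 2 were higher without control replicate 1, control replicate 2, mutant replicate 1 or mutant replicate 2.

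**Figure D5:**
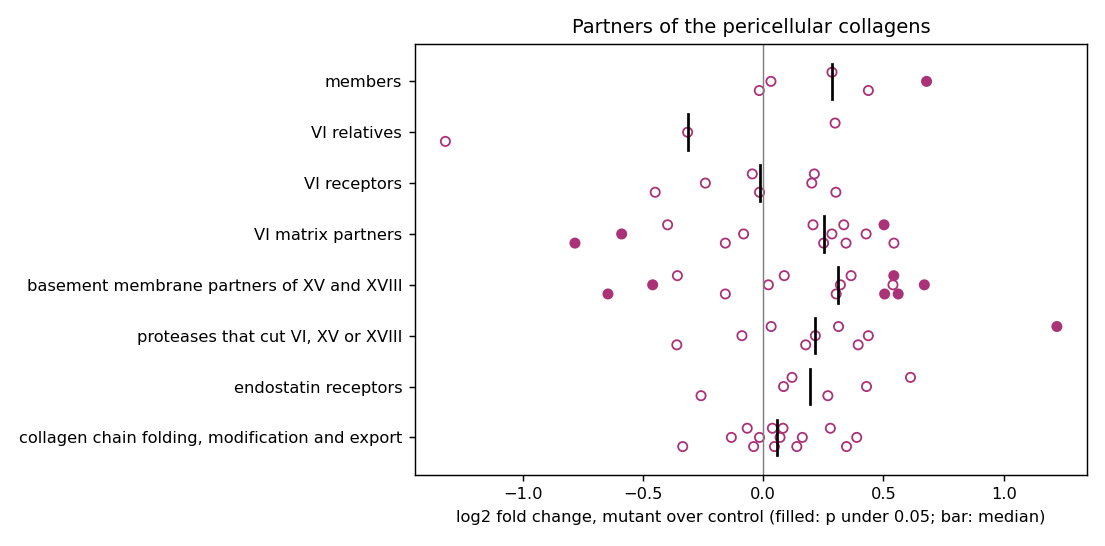
Log2 fold change of mutant over control (horizontal axis) for the members and for each list of partners, with a point for each gene, filled where the unadjusted p in edgeR was under 0.05, and a bar at the median. Filled points lie on both sides of 0 among the matrix partners (1 higher, 2 lower) and the basement membrane partners (4 higher, 2 lower), and there are none among receptors, relatives or folding genes.

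Markers of other cells that a whole IVD sample could hold were read beside Col15a1, since fibroblasts, vessel walls and muscle can express collagens XV and XVIII. The fibroblast list summed to 1797 to 2254 CPM in controls and 2999 to 4974 in mutants, without overlap, most of it from Col3a1. Without Col3a1 the sums were 211 to 229 and 246 to 341 CPM. Of its 7 tested genes, 2 were higher at an unadjusted p under 0.05 (edgeR), Col3a1 and Dpt, with Dpp4 too low to be tested. Pericyte and smooth muscle markers summed to 402 to 502 CPM in controls and 539 to 787 in mutants, without overlap, and 0 of 8 passed. The count of the fibroblast list was 1 without control replicate 1, control replicate 2 or mutant replicate 3, and 3 without mutant replicate 1 or mutant replicate 2. That of the pericyte list was 2 when control replicate 1 or either of mutant replicates 1 and 2 was left out.

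Endothelial markers overlapped between the groups, at 191 to 340 CPM in controls and 270 to 315 in mutants, and 0 of 10 passed. Without control replicate 1, the control library highest in them, 6 of 10 were higher at an unadjusted p under 0.05 (edgeR), while 1 was higher without mutant replicate 1 and 1 lower without mutant replicate 3. In limma-voom 3 endothelial markers were higher, and 1 was with the replicate block or without a filter, while 1 was lower with library totals. With control replicate 1 left out, the log2 fold change of Col15a1 was 0.71 and that of Col18a1 0.56. Tendon and outer annulus markers held 3 higher genes of 8, Tnmd, Thbs4 and Thbs2, with overlapping sums of 2936 to 4284 and 3844 to 5482 CPM. Of 10 skeletal muscle markers, 9 were lower in mutants (median log2 fold change −3.11). Without control replicate 1, 4 were higher, 0 lower and the median was 0.67. With mutant replicate 1, 2 or 3 left out, 2, 4 and 2 were lower, and with the replicate block or limma-voom 0 were lower. Of 7 markers of red blood cell precursors 1 was higher, with 7 above 0 and a median of 1.02. With limma-voom 6 were higher, and in edgeR without a filter on low counts 7 were. At an adjusted p under 0.05, 1 of them passed in edgeR without the filter and 1 in DESeq2. Without control replicate 1, 6 were higher and the median was 2.16, while it was 0.55 without control replicate 2 and 0.54 without mutant replicate 2, and 2 were higher without mutant replicate 3. Osteoblast markers held 2 higher and 1 lower gene of 6, and 0 were lower when control replicate 3, mutant replicate 2 or mutant replicate 3 was left out. Of 8 macrophage markers 1 was higher, which became 2 without mutant replicate 2 and 0 when control replicate 2, control replicate 3 or mutant replicate 1 was left out. Of 6 Schwann cell markers 0 were higher, against 2 when control replicate 2 or mutant replicate 3 and 1 when mutant replicate 2 was left out. Of 4 adipocyte markers tested 0 were higher, and 1 was without control replicate 1. Of 10 chondrocyte markers, 2 had a log2 fold change above 0 and 1, Matn3, was lower (median −0.28), with 0 lower when control replicate 1, mutant replicate 2 or mutant replicate 3 was left out. The median was −0.16 with control replicate 1 or control replicate 2 left out. Of 7 nucleus pulposus markers tested 0 passed (median 0.09), and 1 was higher when control replicate 3 or mutant replicate 2 was left out, with medians from −0.20 (mutant replicate 3 left out) to 0.53 (control replicate 3 left out). In the main edgeR fit no marker of these lists passed an adjusted p under 0.05. Without a filter on low counts, 9 skeletal muscle, 3 tendon, 2 Schwann cell and 1 osteoblast marker also passed it. In DESeq2, 1 tendon, 1 fibroblast and 1 osteoblast marker also did, and 1 tendon marker did in edgeR without control replicate 1. The part of any of these cells in the Col15a1 difference was not tested.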

How the data were processed

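RNA-seq libraries of P20 IVDs were compared, 3 from Col2Cre;Adgrg6 f/f mutants and 3 from controls. The authors deposited raw counts per gene symbol, with the closing lines of htseq-count. Their processing notes name STAR 2.5.3a, HTSeq, DESeq2 and the builds mm10 and GRCm38, whereas the methods describe HISAT2, StringTie and Ballgown. A table of the authors' own comparison, with fold changes and p-values, was not used. Lines for reads on no gene, ambiguous or not aligned were left out. Reads on no gene were 39.4 to 43.3% of all reads counted, on genes or in these closing lines.

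Counts were scaled by TMM and filtered with filterByExpr (count minimum 10), and the quasi-likelihood test of edgeR 4.0.16 (R 4.3.3) was run on the 16152 genes left, whose p-values were adjusted together (Benjamini-Hochberg). CPM used the TMM-scaled library totals. The study tests FPKM with Ballgown, and a count model replaced it here. Thresholds were an unadjusted and an adjusted p under 0.05. Depth was 9061491 to 12017008 counts per library, and counting errors cover counting only. Ratios within libraries were compared with two-sided exact permutation tests. The script was tested on simulated data. Alternatives were RLE factors, library totals, no filter, a replicate block, DESeq2 1.42.0, limma-voom 3.58.1 with quality weights, and each library left out.

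The 5 genes and the lists were chosen with earlier results of these data known. Members were all named. Genes of a list were named at an unadjusted p under 0.05, or among its 4 most abundant. For likeness, the 3 genes of highest Pearson r were named, and genes overlapping a member were named with counts. Markers were named by list. Annotation was GENCODE M21 on GRCm38, and promoter sequences were those of RefSeq (GRCm38.p6), in which all 5 genes matched.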

Additional observations from a re-analysis of the deposited data

How the results depend on the processing

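The log2 fold change of Col6a3 stayed above 0 and without an unadjusted p under 0.05 in all 12 alternatives, at 0.14 to 0.41, the lowest when control replicate 3 and the highest when control replicate 1 was left out, and that of Col15a1 stayed above 0 in all 12, with an unadjusted p under 0.05 in 10 and an adjusted p, by edgeR, DESeq2 or limma-voom with Benjamini-Hochberg adjustment, of 0.102 to 0.999. Col6a1 and Col6a2, near 0, changed sign. For Col6a1 the log2 fold change was −0.085 with library totals, −0.027 with limma-voom and −0.061 to 0.23 with each library left out in turn. For Col6a2 it was 0.0017 without a filter on low counts, 0.0015 with DESeq2 and −0.12 to 0.20 with each library left out. With each library left out, Col15a1 ranged from 0.53 to 0.84, Col18a1 from 0.21 (without mutant replicate 3) to 0.76 (without mutant replicate 2) and the log2 ratio of Col15a1 to Col18a1 from −0.048 (without mutant replicate 2) to 0.63. The cause of these changes was not tested.

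The number of genes at an unadjusted p under 0.05 was 1164, and 2276 without a filter, where more genes are tested, and with 1 library left out it ran from 618, when this was control replicate 3, to 2427, when it was control replicate 1. At an adjusted p under 0.05 there was 1 gene in edgeR, 245 without a filter, 58 with DESeq2 and 31 without control replicate 1, and 0 with the block, with limma-voom or with any other library left out. Library totals moved the median log2 fold change of all genes to −0.13, and 233 of 1223 genes at an unadjusted p were then higher in mutants, against 467 of 1164 with TMM, while limma-voom gave 733 of 1476.

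The replicate numbers showed no clear pairing of the samples. The correlations of same-numbered deviations were 0.159, −0.132 and 0.101, and those of different-numbered deviations ran from −0.265 to 0.179. With groups of 3 pools these values cannot exclude a pairing. With the replicate block in edgeR, 1002 genes had an unadjusted p under 0.05, the log2 fold change of Col15a1 was 0.69, at an unadjusted p of 0.0225, that of Col18a1 was 0.34, and no member's call changed. Groups of 3 pools limit the precision of all values, and 541 to 1050 counts per library that of Col18a1.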
